A study of Rattus norvegicus with 12 samples.

Results

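The corticotroph genes *Pomc* and *Tbx19* and the related basic helix-loop-helix genes *Neurod1* and *Neurod4* were described in the anterior pituitary glands of rats treated with diethylstilbestrol (DES), a synthetic estrogen. The 4 genes were chosen by symbol, with their signals by line on these same arrays already known, and every probe set whose platform annotation gives exactly 1 of these symbols was taken. This gave 3 probe sets for 3 of the 4 genes, 1 each for *Pomc*, *Tbx19* and *Neurod1*, among 31099 probe sets and 14218 genes with a single symbol on the array. *Neurod4* has no probe set that carries its symbol or its gene identifier in the annotation used here and was not analysed here. Of the 3 probe sets, 2 passed the filter on dim signals (*Tbx19* and *Neurod1*), and *Pomc* did not.

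Male rats of 4 congenic lines (Ept1, Ept2, Ept6, Ept9) gave 12 expression arrays, 3 from each. On the ACI background a line carries alleles of the Copenhagen (COP) strain at 1 locus for estrogen-induced pituitary growth. The locus is on chromosome 6 for Ept1, chromosome 10 for Ept9 and chromosome 3 for both Ept2 and Ept6. All rats received a 5 mg DES implant at 9 weeks of age, were killed at 21 weeks of age after 12 weeks of treatment, and were injected with BrdU (50 mg/kg) 4 h before. Without arrays of sham-treated or of ACI rats, the lines can only be compared with each other and no effect of DES can be read. A line is a single congenic strain, so that its segment and any other feature of the strain cannot be told apart. The labels conflict on whether the 3 arrays of a line are 3 independent animals, and the spread between them may be in part technical.

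*Pomc* encodes proopiomelanocortin, the precursor that is cut into adrenocorticotropic hormone in corticotrophs of the anterior lobe and into other peptides in melanotrophs of the intermediate lobe. *Tbx19* encodes Tpit, a T-box factor restricted to these POMC cells, which acts on the *Pomc* promoter together with the homeodomain factor Pitx1. *Neurod1* encodes a factor that pairs with E proteins to bind E-boxes, and in the mouse it takes part in *Pomc* transcription in early corticotrophs. *Neurod1* and *Neurod4* are also used in other endocrine and nervous cells, so that *Neurod1* by itself does not mark a corticotroph.

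The sequences just before the 3 starts of transcription are shown because the factors described here act on such DNA. They are the 250 bases before the annotated start in RefSeq (GRCr8), read 5′ to 3′ on the strand of the gene, at chr6:32659103-32659352 (plus strand) for *Pomc*, chr13:80006344-80006593 (minus strand) for *Tbx19* and chr3:84770455-84770704 (minus strand) for *Neurod1*. Capitals mark every E-box, CANNTG, a pattern that reads the same on both strands.
Pomc: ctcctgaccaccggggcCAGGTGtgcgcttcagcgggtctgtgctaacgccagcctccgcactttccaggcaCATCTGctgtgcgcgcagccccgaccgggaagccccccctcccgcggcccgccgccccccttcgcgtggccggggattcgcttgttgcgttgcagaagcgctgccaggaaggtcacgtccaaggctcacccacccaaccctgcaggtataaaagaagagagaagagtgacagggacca
Tbx19: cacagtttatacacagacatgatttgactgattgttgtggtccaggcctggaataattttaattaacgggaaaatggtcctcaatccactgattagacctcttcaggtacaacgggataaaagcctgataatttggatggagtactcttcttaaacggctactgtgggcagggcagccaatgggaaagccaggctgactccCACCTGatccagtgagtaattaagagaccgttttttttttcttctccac
Neurod1: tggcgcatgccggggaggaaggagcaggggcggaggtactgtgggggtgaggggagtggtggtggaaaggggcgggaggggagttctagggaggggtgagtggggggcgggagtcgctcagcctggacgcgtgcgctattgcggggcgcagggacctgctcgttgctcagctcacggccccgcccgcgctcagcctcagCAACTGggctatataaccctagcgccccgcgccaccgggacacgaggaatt

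The *Pomc* stretch holds 2 E-boxes, CAGGTG at 233 to 228 bases and CATCTG at 178 to 173 bases before the start, and a TATAAA at 32 to 27 bases before it. The *Tbx19* stretch holds 1 E-box, CACCTG, at 49 to 44 bases, and the *Neurod1* stretch holds 1, CAACTG, at 51 to 46 bases before the start. An E-box lies in 65.5% of 33469 promoters of the same length, and CATCTG or its reverse complement CAGATG in 13.96%. The short core site of T-box factors, TCACACC or GGTGTGA, was in none of the 3 stretches and is in 3.22% of all promoters. TATAAA, searched on the strand of the gene only, lies in 8.06% of all promoters. The GC content was 66.4% for *Pomc*, 43.6% for *Tbx19* and 69.2% for *Neurod1*.

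*Pomc* was dim on these arrays and varied more within lines than the other 2 genes. Its linear signal, scaled by the authors to a common level per array, was 101, 152 and 93.8 on the Ept1 arrays (replicates 1 to 3). The Ept2 arrays gave 90.7, 33.8 and 10.6, the Ept6 arrays 121, 84.2 and 11.5, and the Ept9 arrays 23.2, 13.1 and 22.7. The 3 Ept1 arrays and both higher Ept6 arrays were thus among the 6 of 12 above 69.5, the signal under which a probe set was treated as dim, and all 3 Ept9 arrays were below it.

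By mean signal the order for *Pomc* was Ept1 (115.5 ± 31.7), Ept6 (72.1 ± 55.6), Ept2 (45.0 ± 41.2) and Ept9 (19.7 ± 5.69; SD, n = 3 each). Neighbours in this order overlapped and differed by less than the larger of their SDs. The Ept1 and Ept9 arrays did not overlap, but no fold is given between them because every Ept9 array was dim. On the log2(signal + 16) scale, Ept1 stood 1.34 above the mean of the other 3 lines (SE 0.50) and Ept9 stood at -1.15 (SE 0.50), with -0.41 in Ept2 and 0.22 in Ept6. With so dim a probe set these sizes depend on the pseudocount, and the Ept1 difference was 1.82 with a pseudocount of 1 and 0.78 with 64. The signs for Ept2 and Ept6 changed when 1 array was left out, to 0.08 for Ept2 without its replicate 3 and to -0.24 for Ept6 without its replicate 1. The probe set lay at a median percentile of 33.2 of all probe sets of an array, and whether it reads the *Pomc* transcript well was not tested.

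*Tbx19* was lower in Ept9 than in Ept1 and Ept6, and the Ept2 arrays were scattered. Its signal was 157, 143 and 120.5 in Ept1, 205, 68.5 and 162 in Ept2, 148, 131 and 135 in Ept6, and 79.8, 103 and 86.2 in Ept9. Ept2 replicate 2 had the lowest value of all 12 arrays, while Ept2 replicate 1 had the highest. Without that low array, all 8 other arrays outside Ept9 (at least 120.5) lay above the 3 Ept9 arrays.

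The means of *Tbx19* were 145.0 ± 69.7 in Ept2, 139.9 ± 18.2 in Ept1, 137.9 ± 8.59 in Ept6 and 89.6 ± 11.9 in Ept9 (SD, n = 3 each). Ept2, Ept1 and Ept6 did not differ beyond their spread, and on the log2 scale their order was Ept1, Ept6, Ept2. Ept9 stood at -0.54 against the mean of the other 3 lines (SE 0.23), between -0.67 and -0.44 when any 1 array was left out. The differences of Ept1 (0.21), Ept2 (0.13) and Ept6 (0.19) were within 1 SE of 0. When 1 array was left out, Ept1 ran from 0.07 to 0.30 and Ept6 from 0.06 to 0.29, with the lowest values without Ept2 replicate 2 and the highest without Ept2 replicate 1. Ept2 moved to 0.54 without its replicate 2 and to -0.15 without its replicate 1, so that single arrays set the sign there. *Tbx19* was above the dim signal on 11 of 12 arrays, at a median percentile of 50.8.

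*Neurod1* showed the clearest separation of the lines, highest in Ept2 and lowest in Ept9. Its signal was 298, 280.1 and 219 in Ept1, 425.5, 348 and 302 in Ept2, 266.5, 191 and 182 in Ept6, and 141, 174 and 146.5 in Ept9. Every Ept2 array (302 or more) lay above all 9 other arrays (298 or less), and every Ept9 array (174 or less) lay below all 9 others (182 or more). Of all probe sets tested, 1.92% had their 3 Ept2 arrays above the other 9, and 1.39% had their 3 Ept9 arrays below. The gaps were narrow, 302 against 298 at the upper end and 174 against 182 at the lower end.

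The means of *Neurod1* were 358.3 ± 62.5 in Ept2, 265.7 ± 41.4 in Ept1, 213.4 ± 46.2 in Ept6 and 153.8 ± 17.3 in Ept9 (SD, n = 3 each), a signal 2.33 times as high in Ept2 as in Ept9. The arrays of Ept1 and Ept6 overlapped, and the other neighbours did not. On the log2 scale Ept2 stood 0.75 above the mean of the other 3 lines and Ept9 at -0.76, with 0.21 in Ept1 and -0.20 in Ept6 (SE 0.14 each). No sign changed when 1 array was left out, with 0.62 to 0.86 for Ept2 and -0.84 to -0.71 for Ept9. The smaller differences moved more in proportion, from 0.12 without Ept1 replicate 1 to 0.33 without Ept1 replicate 3 for Ept1, and from -0.36 without Ept6 replicate 1 to -0.10 without Ept6 replicate 3 for Ept6. Ept2 and Ept6 carry segments of the same chromosome, on which *Neurod1* also lies, yet they stood at opposite sides of the Ept1 mean. Where the segments end was not known here, and whether they hold *Neurod1* (chromosome 3) or *Pomc* (chromosome 6, as the Ept1 segment) cannot be said. *Tbx19* lies on chromosome 13, outside the chromosomes of all 4 segments.

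**Figure D1:**
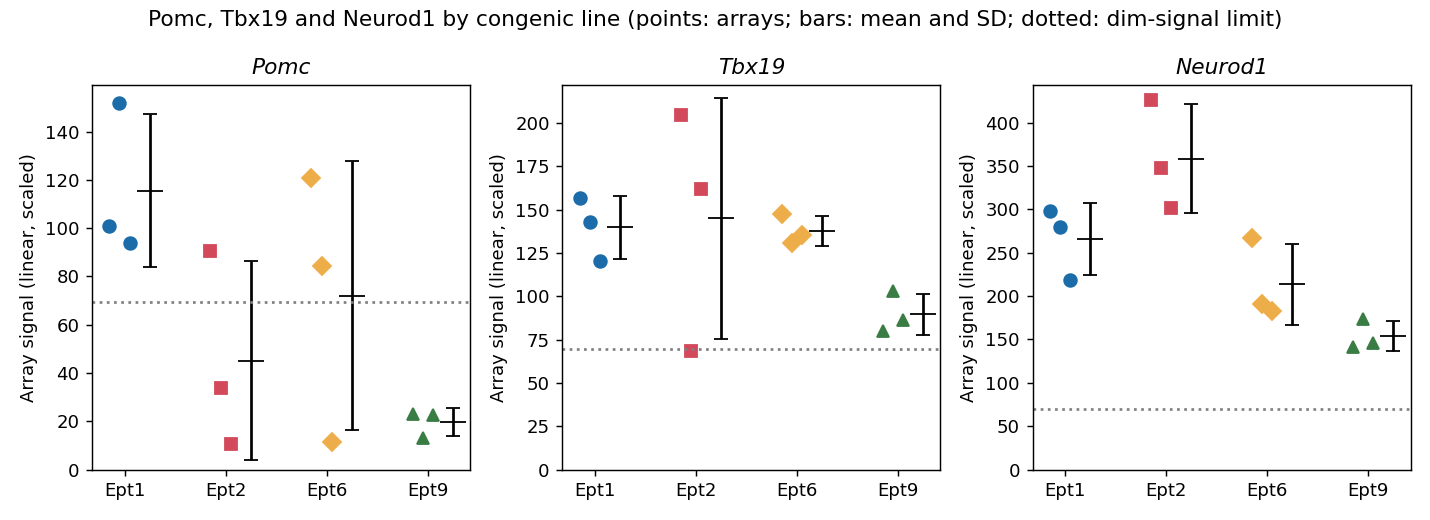
Linear array signal (vertical axis, scaled by the authors) of *Pomc*, *Tbx19* and *Neurod1* in Ept1, Ept2, Ept6 and Ept9. Points are the 3 arrays of a line in replicate order, bars the mean and SD, and the dotted line the dim signal of 69.5. All 3 *Pomc* arrays of Ept9 lie below the dotted line, 1 Ept2 array lies at 68.5 for *Tbx19*, and the *Neurod1* arrays of Ept2 and of Ept9 lie apart from the rest.

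Since the genes were chosen with these values known, the calls of a fit over all probe sets are given for scale only. The fit was limma's, on log2(signal + 16), with Benjamini-Hochberg adjustment over 18626 probe sets and a threshold of 0.05. Among the 4 lines, 184 probe sets were called (0.988%), *Neurod1* among them and *Tbx19* not. Against the mean of the other 3 lines, 36 were called in Ept1 (0.193%), 144 in Ept2 (0.773%), 30 in Ept6 (0.161%) and 124 in Ept9 (0.666%). *Neurod1* was called in Ept2 and in Ept9, and *Tbx19* in no line. Nothing is read from these calls, which lay close to the threshold: of 18 alternative settings, *Neurod1* was called among the lines in 5, in Ept2 in 6 and in Ept9 in 3.

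Whether *Neurod1* followed the corticotroph genes was described by its correlation with them over the 12 arrays on the log2 scale. The arrays share lines and scaling and are not independent points, so that no p is given. All 3 genes had their lowest mean in Ept9. They differed at the upper end, where *Neurod1* was highest in Ept2 and *Pomc* in Ept1. In Ept2 replicate 3 *Neurod1* gave 302, above every array of the other 3 lines, while *Pomc* gave 10.6, its lowest value on any array.

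*Neurod1* and *Pomc* had a Pearson r of 0.45 and a Spearman rho of 0.33. Their r was 0.58 without the 2 arrays farthest from the *Pomc* median (Ept2 replicate 3 and Ept6 replicate 3), 0.34 without the 2 farthest from the *Neurod1* median (Ept2 replicate 1 and Ept9 replicate 1), and 0.66 over the deviations of the arrays from their line means. The r over all arrays was higher than that of 86.6% of all probe sets with *Neurod1*, below the 95th percentile of 0.60. *Pomc* and *Tbx19*, the pair that defines the lineage, had an r of 0.43 and a rho of 0.25, with 0.17 within lines. Without Ept2 replicate 3 and Ept6 replicate 3, their r was 0.76. Without the 2 arrays farthest from the *Tbx19* median (Ept2 replicate 2 and Ept9 replicate 1), it was 0.38.

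*Neurod1* and *Tbx19* had an r of 0.53 and a rho of 0.58, higher than 92.1% of all probe sets, with 0.39 within lines. This value turned on 1 array. Without Ept2 replicate 2, which had 68.5 for *Tbx19* and 348 for *Neurod1*, the r over 11 arrays was 0.94 and the rho 0.95, with 0.89 within lines. The r over these arrays was higher than that of 99.98% of probe sets. That array was singled out after its values were seen, and dropping a point that lies off a relation raises r by itself. Without the 2 arrays farthest from the *Tbx19* median (Ept2 replicate 2 and Ept9 replicate 1), r was 0.93, and without the 2 farthest from the *Neurod1* median (Ept2 replicate 1 and Ept9 replicate 1) it was 0.19. Leaving out any 1 array gave an r between 0.355 and 0.94.

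**Figure D2:**
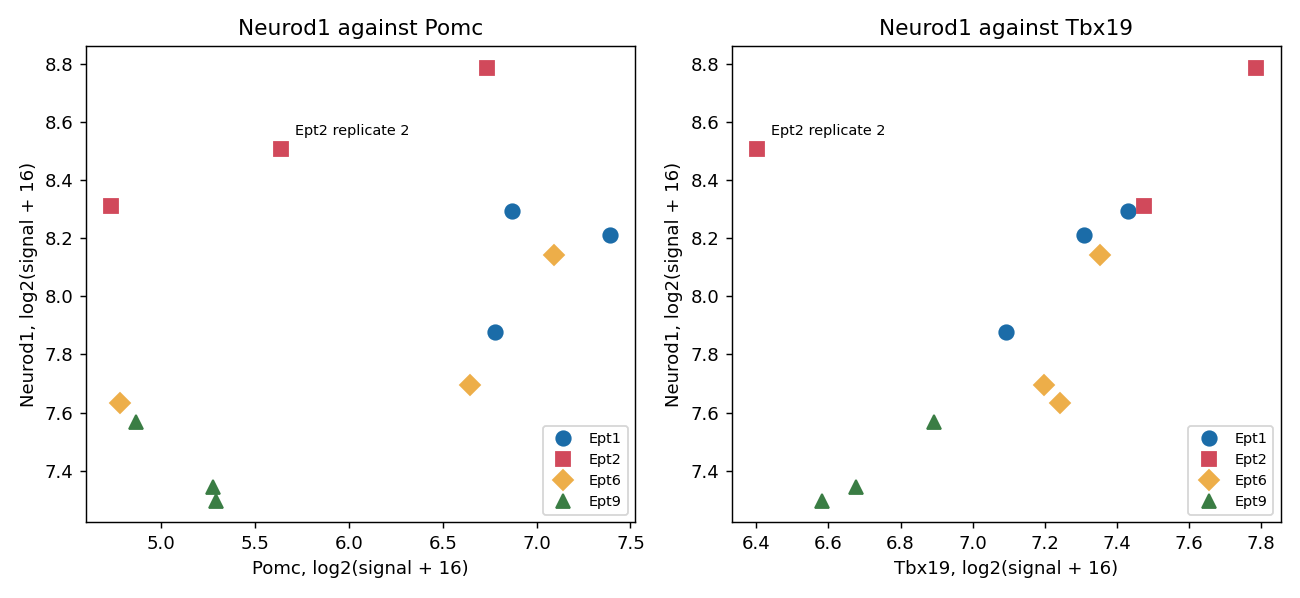
*Neurod1* (vertical axis) against *Pomc* (left) and *Tbx19* (right), both axes as log2(signal + 16), with 1 point per array and a symbol per line. On the right the arrays other than Ept2 replicate 2 lie near a line (r = 0.94 over 11 arrays, 0.53 over 12), and on the left the Ept2 arrays lie above the others at like *Pomc* values.

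Ept2 replicate 2 also differed from the other Ept2 arrays in genes of other hormone cells. It had a *Tshb* signal of 7187, against 18692 and 9820 on Ept2 replicates 1 and 3. *Nr5a1*, a gonadotroph factor, gave 155 there, against 473 and 324. *Prl*, which encodes prolactin, gave 51767 there, the highest of all arrays, against 45078 and 43841. The median correlation of this array with the others, 0.973, was near the low end over arrays (0.971 to 0.979). Only Ept2 replicate 1 was lower. The part of cell composition in its low *Tbx19* was not tested. In such bulk RNA, fewer cells of a type and less RNA per cell cannot be told apart.

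Compared with genes of other pituitary cells, *Pomc* and *Tbx19* did not have the highest correlations with *Neurod1* over all 12 arrays. Among 11 comparison genes, *Avpr1b*, the vasopressin receptor of corticotrophs, had the highest r with *Neurod1* (0.66, above 97.1% of probe sets, and 0.50 within lines). *Fshb* (0.60) and *Tshb* (0.55), the hormone beta subunits of gonadotrophs and thyrotrophs, came next and lay above *Tbx19*. *Nr5a1* had an r of 0.53. *Gh1* (0.47) lay between *Tbx19* and *Pomc*, and *Cga* (0.40), *Pou1f1* (0.34), *Prl* (0.30), *Gata2* (0.15) and *Lhb* (0.14) below both. This order did not hold without the 2 arrays farthest from the median of each compared gene. There *Tbx19* (0.93) and *Pomc* (0.58) had the highest r, ahead of *Gh1* (0.45), *Avpr1b* (0.44), *Tshb* (0.43), *Gata2* (0.41), *Fshb* (0.32), *Prl* (0.30), *Pou1f1* (0.23), *Cga* (0.16), *Lhb* (0.08) and *Nr5a1* (-0.12). The arrays left out differ from gene to gene.

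Within lines the order was another one. *Pomc* (0.66), *Avpr1b* (0.50) and *Tbx19* (0.39) had the highest values there, while *Tshb* gave 0.02, *Fshb* 0.29, *Nr5a1* 0.15, *Pou1f1* 0.29 and *Gh1* -0.30. With 3 arrays per line these values rest on 12 deviations around 4 means. *Pcsk2*, a prohormone convertase strong in melanotrophs, ran against *Neurod1* with an r of -0.61, lower than all but 4.19% of probe sets, but with 0.06 within lines. No probe set carries the symbol *Crhr1*, *Pcsk1* or *Pax7*, so that the receptor for corticotropin-releasing hormone, the main convertase of corticotrophs and the main melanotroph factor were not analysed here.

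**Figure D3:**
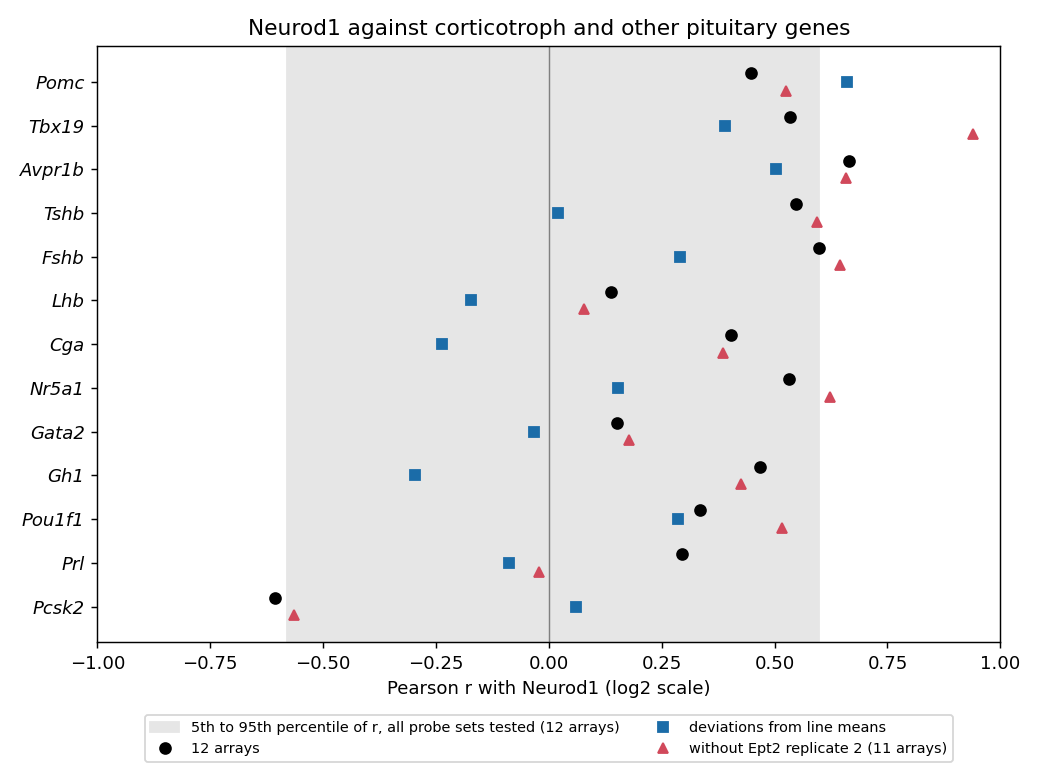
Pearson r of *Neurod1* (horizontal axis, log2 scale) with each of 13 genes (vertical axis), over 12 arrays (circles), over deviations from line means (squares) and over 11 arrays without Ept2 replicate 2 (triangles). The grey band runs from the 5th to the 95th percentile of r over all probe sets tested (-0.58 to 0.60). The band applies to the circles, of which *Avpr1b* lies above it and *Pcsk2* below it. *Tbx19* stands at 0.53 with all arrays and at 0.94 without that array.

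Among probe sets with a single gene symbol, those most like each gene were others. With *Neurod1* they were *Slc43a2* (r = 0.95), which encodes an amino acid transporter, *Krt20* (0.91), a keratin gene, *Mgme1* (0.90), a mitochondrial exonuclease gene, *Atf7ip* (0.90) and *Uqcc1* (0.88), an assembly factor gene of respiratory complex III. Of these 5, *Slc43a2* and *Krt20* lie on chromosome 10 and *Mgme1* and *Uqcc1* on chromosome 3, the chromosomes of the Ept9 segment and of the Ept2 and Ept6 segments. The share of all probe sets on these chromosomes is not given here, and no link to the segments is read from their positions. Within lines the r with *Neurod1* was 0.82 for *Slc43a2*, 0.75 for *Krt20*, 0.47 for *Mgme1*, 0.46 for *Uqcc1* and 0.93 for *Atf7ip*, which lies on chromosome 4. Most opposite were *Apobec1* (-0.96), a cytidine deaminase gene, *Il34* (-0.91), a cytokine gene, and *Fcna* (-0.91), a ficolin gene.

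With *Tbx19* the most alike were *Arhgef7* (0.97), a guanine nucleotide exchange factor gene, *Ank3* (0.94), an ankyrin gene, *Gas7* (0.89), *Ppp5c* (0.89), a phosphatase gene, and *Pskh1* (0.89), a kinase gene. Most opposite were *Sdf4* (-0.91), *Npdc1* (-0.90) and *Pgap6* (-0.90). With *Pomc* they were *Ldah* (0.90), *Cxxc5* (0.90), *Rfx1* (0.90), *Ehd4* (0.88) and *Vps26a* (0.87) on the one side, and *Mgmt* (-0.95), a DNA repair gene, *Ermard* (-0.89) and *Clic4* (-0.86) on the other. *Ldah* lies on chromosome 6 as *Pomc* does. Probe sets with no symbol or several were passed over: 2 at each end for *Neurod1*, 1 at the high end for *Pomc* and 1 at the low end for *Tbx19* lay among those named. These genes were picked as extremes over 12 arrays, and their rank is a description.

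Genes around *Pomc*, *Tbx19* and *Neurod1* gave at most 1 call per line. Of the 10 tested genes on each side in GRCr8, 20 per gene, none around *Pomc* was called in any line. Around *Neurod1*, 1 of 20 (*Dusp19*) was called, as higher in Ept2, beside 0.773% of all probe sets, and none in Ept1, Ept6 or Ept9. Around *Tbx19*, 1 of 20 (*Creg1*) was called, as higher in Ept9, beside 0.666% of all probe sets, and none elsewhere. A single gene is too few to read a share from.

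Genes that work with these factors, together with markers of the pituitary cell types, were read from lists of 75 genes. Of these, 63 had a probe set and 44 passed the dim filter. Of the 44, 1 was called among the 4 lines (*Id1*), 1 in Ept9 (*Stat3*, lower) and 0 in Ept1, Ept2 and Ept6 by limma. At an unadjusted p under 0.05 there were 12 among the lines, 5 in Ept1, 14 in Ept2, 8 in Ept6 and 6 in Ept9. These are 27.3%, 11.4%, 31.8%, 18.2% and 13.6% of the 44, beside 14.1%, 7.5%, 14.4%, 10.7% and 11% of all probe sets tested. In Ept2, 5 of 7 gonadotroph, 2 of 2 thyrotroph, 1 of 4 lactotroph and 1 of 3 somatotroph markers were among the 14. The lists of genes that work with the factors gave 1 of 5 for precursor processing (*Pcsk2*, also a melanotroph marker) and 2 of 8 for signal input. They gave 0 of 5 for early factors, 2 of 8 for helix-loop-helix genes and 0 of 1 for T-box relatives. The lists were drawn up with earlier results of these arrays known.

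Among the 11 genes of signal input to corticotrophs, 8 were tested. *Stat3* relays leukemia inhibitory factor to *Pomc*, and its brighter probe set gave 1200, 1186 and 1381 in Ept9, against 2758, 2039 and 2892 in Ept1, 2737, 1595 and 2099 in Ept2 and 2788, 2890 and 2057 in Ept6. All 3 Ept9 arrays lay below the 9 others, as in 1.39% of all probe sets tested. The log2 difference was -0.92 (SE 0.17, limma adjusted p = 0.0433), and the adjusted p ran from 0.014 to 0.197 over 18 alternatives, 6 of which kept the call. Of the 12 fits without 1 array, 3 kept it, with differences from -0.99 to -0.86. The dimmer *Stat3* probe set went the other way, at 591 to 705 in Ept9 and 514 to 638 in the other lines (0.18, limma adjusted p = 0.478). *Stat3* lies on chromosome 10, that of the Ept9 segment. Which of the 2 probe sets reads the gene's level was not tested.

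*Avpr1b* gave 171, 109 and 130 in Ept2, above all 9 other arrays by a narrow gap (109 against 102 in Ept9). Of all probe sets tested, 1.92% had their 3 Ept2 arrays above the other 9. The *Avpr1b* values were 96.3, 83.0 and 101 in Ept1, 77.6, 71.2 and 61.9 in Ept6 and 82.9, 102 and 85.5 in Ept9. Its differences were 0.59 in Ept2 (SE 0.12, limma adjusted p = 0.0571) and -0.48 in Ept6 (SE 0.12, limma adjusted p = 0.211), and it was not called. The order of the lines was thus Ept2 first for both *Avpr1b* and *Neurod1*, but *Avpr1b* was lowest in Ept6 and *Neurod1* in Ept9. In Ept9 the median estimate of the 8 tested input genes was -0.19, beside -0.01 over all probe sets. *Stat3* entered it with its brighter probe set. *Nr3c1* (560 to 824), the glucocorticoid receptor gene, and the orphan receptor gene *Nr4a1* (2048 to 5255) were not called. *Crhbp* and *Lifr* were dim.

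**Figure D4:**
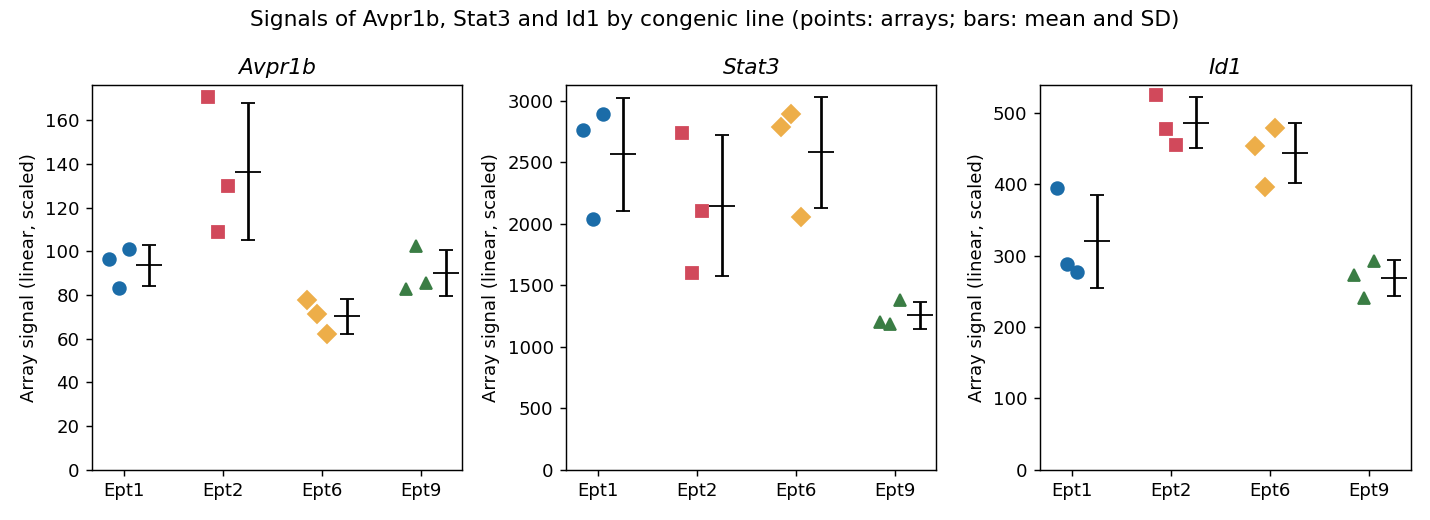
Linear array signal (vertical axis, scaled by the authors) of *Avpr1b*, *Stat3* (brighter probe set) and *Id1* in Ept1, Ept2, Ept6 and Ept9. Points are the 3 arrays of a line in replicate order and bars the mean and SD. Ept2 lies above the other lines for *Avpr1b*, Ept9 lies below them for *Stat3* (1186 to 1381), and Ept2 and Ept6 lie above Ept1 and Ept9 for *Id1*.

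Among 15 genes for basic helix-loop-helix partners and inhibitors, 8 were tested. *Id1*, whose product binds E proteins and keeps them off DNA, gave 525, 478 and 455 in Ept2, 454, 397 and 479 in Ept6, 395, 289 and 277 in Ept1 and 273, 241 and 292 in Ept9. The 6 arrays of Ept2 and Ept6 lay above the 6 of Ept1 and Ept9, by a narrow gap (397 in Ept6 against 395 in Ept1). This split, picked after the values were seen, was shown by 30 of the probe sets tested (0.161%). The 4 lines differed in the limma F test (adjusted p = 0.0422), while no single line passed, with 0.51 in Ept2 (limma adjusted p = 0.079) and -0.58 in Ept9 (limma adjusted p = 0.0511). The call among the lines was kept in 5 of 18 alternatives, and in 1 of the 12 that left out an array (Ept1 replicate 1). The adjusted p ran from 0.0113 to 0.127. *Id1* and *Neurod1* thus had both ends in the same lines, Ept2 and Ept9, while Ept1 and Ept6 stood in opposite order. *Id1* lies on chromosome 3.

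*Id3* (321 to 587) and *Id4* (150 to 335) were not called in any line, nor were *Tcf4* (2988 to 3901) and *Tcf12* (837 to 1148), which encode E proteins that pair with NeuroD factors. The relatives *Neurod2*, *Neurod6*, *Neurog1*, *Neurog2* and *Neurog3* were all dim, with medians from 20.4 to 45.8, so that of the NeuroD and neurogenin genes with a probe set *Neurod1* was the one above the dim signal on all 12 arrays. *Hes1* and *Hes6*, which also encode basic helix-loop-helix factors, gave 176 to 304 and 1228 to 1927 and were not called.

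Of the 8 early pituitary and corticotroph factors, 5 were tested and 0 called. *Pitx1*, the partner of Tpit, ran from 393 to 673, with differences from -0.21 in Ept6 to 0.12 in Ept1 (SE 0.13). *Isl1* was scattered from 13.6 to 244, with both ends among Ept6 and Ept2 arrays. Of 10 T-box relatives of *Tbx19*, 5 had a probe set and *Tbx2* alone passed the filter (at most 157, not called). Of 6 genes that process the precursor, 5 were tested and 0 called. *Cpe*, *Pam* and *Scg5* varied by a factor of 1.14 to 1.18 between the extreme arrays. *Pcsk2* was lowest in Ept2 (876, 1145 and 1027, against 1310.5 to 1857 in the other lines), with a difference of -0.64 and a limma adjusted p of 0.0504. Of all probe sets tested, 1.68% had their 3 Ept2 arrays below the other 9.

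The labelled tissue was borne out by its hormone genes, with *Prl* at 41979 to 51767, *Gh1* at 27923 to 40693 and *Cga* at 28680 to 39233. Of 5 corticotroph markers, *Crhr1* and *Pcsk1* have no probe set, *Pomc* was dim on 6 arrays, and *Tbx19* and *Avpr1b* were above the dim signal on 11 each. The 6 posterior lobe markers were low, with a summed signal of 216 to 480 per array. Of these 6, *Avp* (median 14.2), *Oxt* (37.7), *Nkx2-1* (33.1), *Rax* (38.5) and *Gfap* (65.85) did not pass the dim filter, though *Gfap* was above the dim signal on 5 arrays. *Aqp4* (median 84.55) passed the filter and was above the dim signal on 9 of 12 arrays. The share of posterior lobe tissue was not tested. Of the 3 melanotroph markers *Pax7* has no probe set, and the sum of *Pcsk2* and *Drd2* was 4822 to 6133 in Ept2, against 5772 to 7054 in the other lines. Most of this sum was *Drd2* (3947 to 5513 over all arrays), which is also on the lactotroph list. The log2 difference in Ept2 was -0.64 for *Pcsk2* and -0.07 for *Drd2*.

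Markers of other hormone cells were read in Ept2, where *Neurod1* was highest, and none was called there. All 7 gonadotroph markers had estimates above 0 there (median 0.44, 0 called, 5 with an unadjusted p under 0.05), beside a median of 0.01 and a share of 14.4% over all probe sets. Their summed signal was 35460 to 42290, against 29950 to 38010 in the other lines. Most of this sum was *Cga* alone, at 34078 to 39233 in Ept2. The 3 thyrotroph markers summed to 10800 to 22080 in Ept2, against 8032 to 13180. The 5 lactotroph markers summed to 97310 to 109800, against 91580 to 100200. All 3 sums overlapped those of the other lines. The 3 somatotroph and *Pou1f1* lineage markers with a probe set summed to 41340 to 46660 in Ept2, against 34240 to 40290, without overlap. Most of that sum was *Gh1*, at 36070 to 40693 in Ept2. Of these 3, *Gh1* alone had an estimate above 0 in Ept2 (0.25, limma adjusted p = 0.165), and 2 were below 0. Of all probe sets tested, 1.92% had their 3 Ept2 arrays above the other 9. The log2 difference between the 3′ and 5′ probe sets of *Gapdh*, a measure of RNA integrity, was 0.31 to 0.42 in Ept2, against 0.09 to 0.28 in the other lines. The same difference for beta-actin was 1.76 to 1.85 in Ept2, against 1.49 to 1.79, and overlapped. The part of these in the *Neurod1* level was not tested. In Ept9, where *Neurod1* was lowest, the gonadotroph sum, mostly *Cga*, was 32460 to 35570. That sum, the lactotroph sum (95200 to 100200) and the *Gapdh* difference (0.17 to 0.28) lay within the range of the other lines.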

How the data were processed

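Anterior pituitary RNA of DES-treated male rats was measured on 12 one-colour arrays, 3 in each of 4 congenic lines, grouped by title. The deposited values are linear intensity values for 31099 probe sets, which the authors had scaled to a common trimmed mean of about 500.2 per array (trimming 2% at either end). The software that made them is not given in the sources used here, nor is any correction for background. The number of arrays limits the precision. Correlations between arrays ran from 0.966 to 0.983 and 0 pairs held identical values. Probe sets were named from the platform annotation, and chromosomes, gene order and promoters came from RefSeq (GRCr8).

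From the deposited intensities log2(signal + 16) was computed, and 57 control probe sets and 12416 with a mean under the 40th percentile (69.5) were left out, which left 18626. Differences are on this scale and understate those of dim genes. *Pomc*, which was dim, was read from the same fit without the filter. Tests used limma 3.58.1 in R 4.3.3, an F test among the lines and each line against the mean of the other 3, with Benjamini-Hochberg adjustment and a threshold of 0.05, tested on simulated data. The 4 contrasts share arrays. Correlations used Python 3.11.15, pandas 2.3.3 and scipy 1.17.1. Gene lists used the brightest probe set of a gene.

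The genes and lists were chosen with earlier results of these data known. Named were the 4 genes, the 5 most and 3 least correlated genes for each, called list genes and fixed comparison genes, and other list genes and neighbours were named after their values were seen. Alternatives were pseudocounts of 1 and 64, quantile normalization, the replicate number as a block, the dim filter dropped or raised to the 60th percentile, and each array left out.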

Additional observations from a re-analysis of the deposited data

How the results depend on the processing

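The counts of called probe sets moved with most settings, and the levels of the 3 genes with few. Among the lines, 184 calls became 53 when dim probe sets were kept in, 295 when the filter was raised to the 60th percentile and 72 to 140 without 1 array. Ept1 had 36 calls, 18 with no filter and 12 to 33 without 1 array. Ept2 had 144, with 32, 232 and 27 to 107 under these 3 settings. Ept6 had 30, with 9, 60 and 11 to 29, and 16 with a pseudocount of 1. Ept9 had 124, with 29 under no filter and 29 to 97 without 1 array. The list genes called among the lines were 1, with 0 when dim ones were kept in, 2 at the higher filter and 0 to 1 without 1 array. Calls without 1 array come from fewer arrays, and the cause of the other changes was not tested.

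With the replicate block the calls were 84 among the lines, 15 in Ept1, 47 in Ept2, 12 in Ept6 and 39 in Ept9, with 0 list genes. The numbers do not pair the arrays: over 18 pairs of equal number in different lines, the deviations from the line means correlated at -0.135 to 0.0732, and 0 pairs passed 0.1.

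Of 192 recomputed differences of *Pomc*, *Tbx19* and *Neurod1*, 186 moved by less than the log2 SD of the line's own arrays. By this wide measure the sign changes of *Pomc* in Ept2 and Ept6 and of *Tbx19* in Ept2 count as unmoved. The replicate block gave the same differences by design and could not move any. The *Pomc* difference was 1.82 in Ept1 and -1.52 in Ept9 with a pseudocount of 1, and 0.78 and -0.67 with 64. The *Tbx19* difference in Ept6, 0.19, was 0.06 without Ept2 replicate 2 and 0.29 without Ept2 replicate 1. The r of *Neurod1* with *Tbx19*, 0.53, was 0.93 without the 2 arrays farthest from the *Tbx19* median and 0.355 to 0.94 without 1 array. Signals near or under 69.5, as for *Pomc*, set the limit of what was read.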
